A study of Rattus norvegicus with 15 samples.

Results

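The genes described here mark the walls of brain blood vessels: Cldn5, Pecam1, Flt1, Tek, Kdr, Cdh5, Vwf and Slco1a4 for endothelial cells, and Pdgfrb and Rgs5 for the mural cells around them. They were taken by name, as every probe set that the array annotation ties to exactly 1 symbol among these 10. The rule found 15 probe sets for 9 of the 10 genes, out of 31042 probe sets that were not controls, and Cdh5, the cadherin of endothelial junctions, was not analysed here. The tissue was the ventral tegmental area, whose dopamine neurons project to the accumbens, and its RNA was measured on 1 Affymetrix rat array per animal in 7 ethanol-treated rats and 8 age-matched rats given water. The series title names alcohol-preferring (P) rats, selected over generations for drinking much ethanol, and loss-of-control drinking, whereas the design text mentions both high- and low-drinking lines. The labels give no line, sex, age, dose or time of death for any single animal. Values are log2 RMA signals, in which 1 unit is a doubling, and every difference is ethanol minus water.

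In the brain, endothelial cells are sealed to each other by tight junctions and carry transporters that decide what enters the tissue, which together form the blood-brain barrier. Pericytes and smooth muscle cells, the mural cells, wrap the vessel, steady it and set its width. Endothelial cells receive growth signals through the VEGF receptors and the angiopoietin receptor Tek, and they recruit pericytes by releasing PDGF-B, which Pdgfrb binds.

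No member passed the test between the groups. Of the 12 member probe sets that passed the filter on dim signal, 0 passed limma at an adjusted p below 0.05, against 0.929% of the 18625 probe sets tested (0.387% higher and 0.542% lower in ethanol rats). At an unadjusted p below 0.05 the count was 0 of 12, against 12.1% of all probe sets, and the exact permutation test gave 0 of 12 at that level. The groups overlapped in 12 of 12, and in all but 0.623% of the probe sets tested. The differences ranged from -0.13 for Cldn5 to 0.10 for Kdr, or from -8.41% to 7.53% on the linear scale. Each of the 12 intervals of 95% held 0, and none reached below -19.2% or above 33.0%. The tissue holds many cell types, so fewer vascular cells and less vascular RNA per cell cannot be told apart in these values.

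Cldn5, Slco1a4 and Rgs5 followed each other from rat to rat, as described further on, and the 250 bases before their RefSeq start sites are shown for that reason. They are from the GRCr8 assembly, 5′ to 3′ in the direction of the gene, and capitals mark GGAA or its reverse complement, the core that ETS factors such as Erg and Fli1 of endothelial cells recognise. The windows are chr11:95718599-95718848 on the minus strand for Cldn5, chr4:176495847-176496096 on the minus strand for Slco1a4 and chr13:84380827-84381076 on the plus strand for Rgs5.
Cldn5: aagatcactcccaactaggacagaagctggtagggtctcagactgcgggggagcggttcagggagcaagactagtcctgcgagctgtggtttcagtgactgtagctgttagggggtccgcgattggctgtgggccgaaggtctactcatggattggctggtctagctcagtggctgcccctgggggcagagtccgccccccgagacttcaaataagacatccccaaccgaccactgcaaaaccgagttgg
Slco1a4: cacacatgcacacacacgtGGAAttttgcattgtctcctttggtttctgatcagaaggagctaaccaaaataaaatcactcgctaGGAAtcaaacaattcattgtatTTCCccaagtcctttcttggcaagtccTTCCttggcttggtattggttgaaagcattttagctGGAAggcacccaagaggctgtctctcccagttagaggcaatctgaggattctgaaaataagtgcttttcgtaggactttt
Rgs5: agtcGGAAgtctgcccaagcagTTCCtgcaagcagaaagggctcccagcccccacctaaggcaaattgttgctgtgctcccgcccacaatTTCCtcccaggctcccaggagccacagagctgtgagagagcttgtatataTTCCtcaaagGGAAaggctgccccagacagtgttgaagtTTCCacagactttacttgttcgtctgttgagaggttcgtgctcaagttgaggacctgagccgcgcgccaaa

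On either strand, GGAA occurred 0 times in the Cldn5 window, 5 times in that of Slco1a4 and 6 times in that of Rgs5. It was present in 93.2% of 33469 rat promoter windows of the same length, with a median of 3, and 19.0% held 5 or more. The longer form AGGAAG, which contains that core, was found 0 times for Cldn5, 1 time for Slco1a4 and 0 times for Rgs5, against 29.5% of all windows with at least 1. CCAAT, searched in the same way, occurred 2 times in the Cldn5 window and 1 time in that of Slco1a4, and 34.0% of all windows held it. TATAAA was in none of the 3 windows and in 12.9% of all. None of the 4 strings occurred in all 3 windows, and a match or its lack says only what letters lie in the window.

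Cldn5 encodes the claudin that forms most of the tight junction strands of brain endothelium. It read 11.18, 11.40 and 11.53 as the lowest, median and highest of the ethanol rats, against 11.28, 11.55 and 11.66 in water rats. The ethanol rats lay lower as a set, with 6 of 7 below the water mean, yet 6 of 7 were inside the range of the water rats. The means were 11.39 ± 0.12 (SD, n = 7) in the ethanol group against 11.52 ± 0.13 (SD, n = 8) in the water group. The difference was -0.13 (SE 0.06, 95% interval -0.26 to 0.0077, limma adjusted p = 0.444, exact permutation p = 0.0799), the smallest unadjusted p of the members. 

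Slco1a4, an organic anion transporter of brain endothelium, was read by 2 probe sets. The brighter one had a lowest, median and highest value of 11.16, 11.26 and 11.48 in ethanol rats and of 11.09, 11.29 and 11.48 in water rats. All 7 ethanol rats lay within the water range. The difference was -0.03 (SE 0.06, 95% interval -0.16 to 0.096), and that of the other probe set was -0.07 (SE 0.08). The 2 probe sets followed each other over the 15 arrays once the group means were removed (r = 0.77, rho = 0.76).

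**Figure D1:**
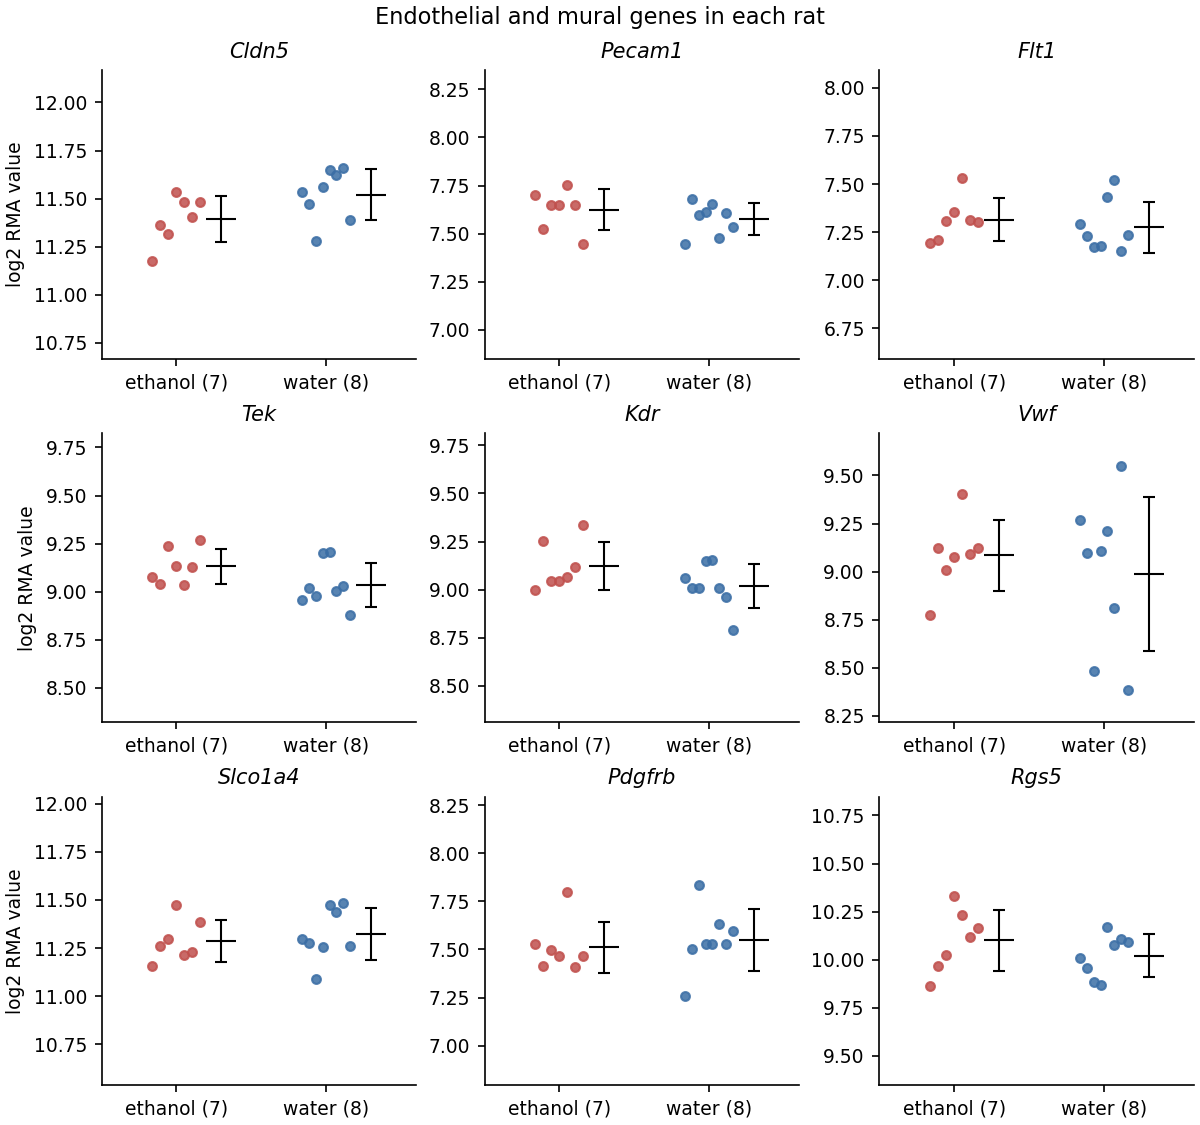
Log2 RMA value (vertical axis, a span of 1.5 units in each panel) of the brightest probe set of each of the 9 measured genes, with 1 point per rat, 7 ethanol rats on the left and 8 water rats on the right; bars give the mean and SD. The groups overlap in every panel, and the widest spread is that of Vwf among water rats, between 8.39 and 9.55.

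Pecam1, Vwf and the receptor genes had small positive differences. Pecam1, or CD31, an adhesion molecule of endothelial junctions that platelets and leukocytes also carry, read 7.45, 7.65 and 7.75 as lowest, median and highest in ethanol rats and 7.44, 7.60 and 7.68 in water rats. The difference of 0.05 (SE 0.05, adjusted p = 0.734) was within the spread of either group. Vwf encodes von Willebrand factor, the clotting protein stored in endothelial granules and in platelets. It read 8.77, 9.09 and 9.40 in ethanol rats and 8.39, 9.10 and 9.55 in water rats. Water rats 8 and 3 were the lowest of the 15, at 8.39 and 8.48, and water rat 7 was the highest. The SD was 0.19 (n = 7) in ethanol rats and 0.40 (n = 8) in water rats. Its pooled SD within groups, 0.32, was larger than that of 97.3% of the tested probe sets, whose median was 0.11. The difference was 0.10 (SE 0.15, 95% interval -0.22 to 0.41), the least precise of the 12. Without water rat 8 it was 0.0093 and without water rat 7 it was 0.18, neither of them called.

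The receptors that endothelial cells use for growth and quiescence signals lay close together. Kdr, the VEGF receptor through which most VEGF signalling runs, read 9.0, 9.07 and 9.33 as lowest, median and highest in ethanol rats and 8.79, 9.01 and 9.16 in water rats. Of the ethanol rats, 6 of 7 were above the water mean, and 5 of 7 were within the water range. The difference was 0.10 (SE 0.06, 95% interval -0.02 to 0.23, adjusted p = 0.506). Tek, the angiopoietin receptor also called Tie2, read 9.03, 9.13 and 9.27 in ethanol rats and 8.88, 9.01 and 9.21 in water rats. Again 6 of 7 ethanol rats were above the water mean, and the difference was 0.10 (SE 0.05, 95% interval -0.02 to 0.21, adjusted p = 0.491). Flt1, the VEGF receptor that mostly holds VEGF back from Kdr, read 7.19, 7.31 and 7.53 in ethanol rats and 7.15, 7.23 and 7.52 in water rats. The difference was 0.04 (SE 0.06, adjusted p = 0.832). The differences of Cldn5, Tek and Kdr were the 3 of 12 with an unadjusted p below 0.10, against 19.7% of all probe sets, and Cldn5 had the opposite sign to Tek and Kdr.

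The 3 member probe sets below the filter level of 6.94 belong to Flt1 and Kdr and add little. Those of Flt1 averaged 6.29 ± 0.08 (SD, n = 7) in the ethanol group against 6.37 ± 0.20 (SD, n = 8) in the water group, and 6.37 ± 0.15 (SD, n = 7) and 6.28 ± 0.14 (SD, n = 8), so their differences of -0.08 and 0.08 had opposite signs. That of Kdr averaged 4.98 ± 0.13 (SD, n = 7) in the ethanol group against 4.99 ± 0.07 (SD, n = 8) in the water group. When the filter was dropped, the adjusted p of these 3 lay between 0.728 and 0.944. The dim Kdr probe set followed the bright one weakly (r = 0.19, rho = -0.09 over 15 arrays).

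Among the mural genes, Rgs5, a regulator of G protein signalling that is abundant in pericytes, read 9.86, 10.12 and 10.33 as lowest, median and highest in ethanol rats and 9.87, 10.04 and 10.17 in water rats. The 8 water rats all lay within the ethanol range. The difference was 0.08 (SE 0.07, 95% interval -0.06 to 0.22, adjusted p = 0.664). Pdgfrb, the receptor by which pericytes are recruited, was read by 3 probe sets that disagreed in sign. The brightest read 7.41, 7.47 and 7.80 in ethanol rats and 7.26, 7.53 and 7.83 in water rats, a difference of -0.04 (SE 0.07). The other 2 were at 0.08 (SE 0.07) and -0.10 (SE 0.10). Over the 15 arrays, with group means removed, these probe sets barely followed each other (r = 0.045, 0.11 and 0.27 for the 3 pairs), although 2 of them share 1 sequence record in the annotation. Their means over all arrays were 7.53, 7.28 and 7.15, near the filter level of 6.94, and no direction for Pdgfrb can be read from them.

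**Figure D2:**
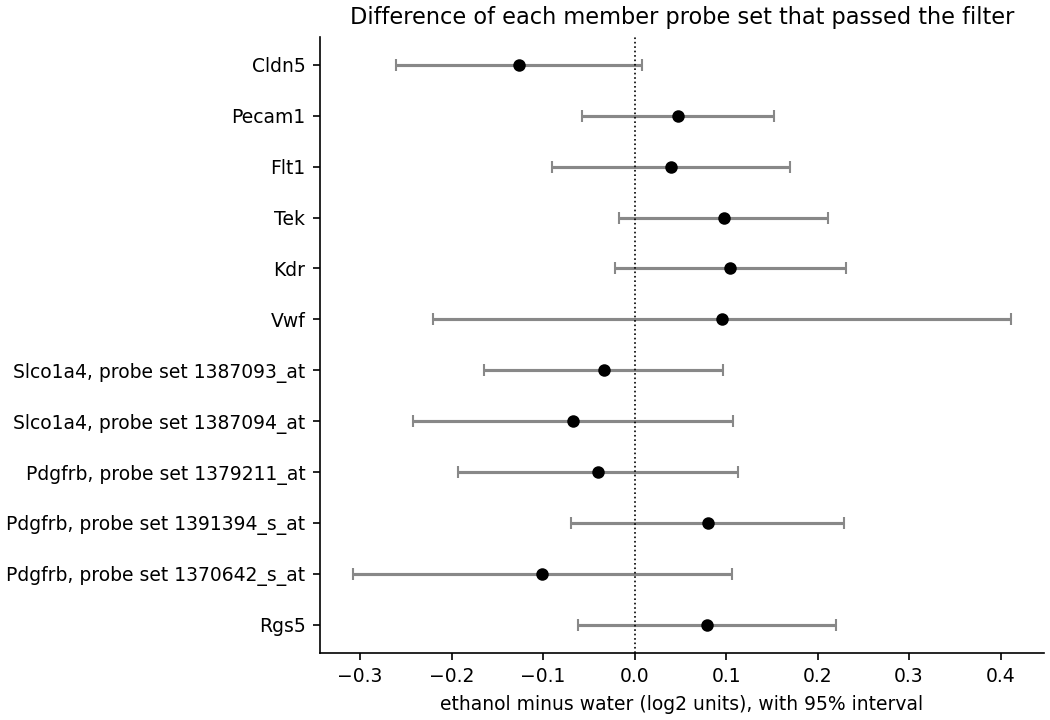
Difference between the group means, ethanol minus water, in log2 units (horizontal axis) for the 12 member probe sets that passed the filter; points are limma estimates and lines their 95% intervals, with 7 ethanol and 8 water rats. Every interval crosses the dotted line at 0, and the 3 probe sets of Pdgfrb lie on both sides of it.

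With each gene represented by its brightest probe set, 6 of the 9 genes had higher and 3 had lower means in ethanol rats. The median difference was 0.05, beside 0.0062 over all 18625 probe sets, and the median size was 0.08, beside 0.05 over all. The mean of the 9 genes in each rat, each gene centred on its own mean over 15 arrays, lay between -0.11 and 0.12 in ethanol rats and between -0.14 and 0.12 in water rats. Water rats 8 and 3 and ethanol rat 1 were the lowest, at -0.14, -0.12 and -0.11, and ethanol rat 6 and water rat 5 the highest, both at 0.12. In ethanol rat 1 and water rat 3 only 1 of the 9 genes was above its own mean, and in water rat 5 it was 8 of 9. Spread between rats of 1 group was therefore wider than the gap between the groups, whose means of this measure were 0.02 ± 0.07 (SD, n = 7) in the ethanol group against -0.01 ± 0.09 (SD, n = 8) in the water group.

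Part of that spread was shared among members. The 36 pairs of the 9 genes were compared over the 15 arrays after the group means were removed, with Benjamini-Hochberg adjustment over the 36. The median r was 0.19, 26 of 36 were positive, and 4 pairs passed by r and 2 by rho. Cldn5 and Slco1a4 were the closest, with r = 0.84 (permutation p = 7.0e-05, adjusted p = 0.00252) and rho = 0.75 (permutation p = 0.00176, adjusted p = 0.0362). Their r was 0.71 in the 7 ethanol rats and 0.92 in the 8 water rats, and 0.72 without the 2 rats farthest from the Cldn5 median. Both were lowest in ethanol rat 1 and water rat 3 and high in water rats 5, 6 and 7.

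Rgs5 joined this pair although it marks mural cells. Cldn5 and Rgs5 had r = 0.74 (permutation p = 0.00144, adjusted p = 0.0192) and rho = 0.74 (permutation p = 0.00201, adjusted p = 0.0362), and r = 0.59 without the 2 rats farthest from the Cldn5 median. Slco1a4 and Rgs5 had r = 0.72 (permutation p = 0.00293, adjusted p = 0.0264) and rho = 0.63 (permutation p = 0.0146, adjusted p = 0.170), and r = 0.60 without the 2 farthest rats. Cldn5 and Vwf had r = 0.74 (permutation p = 0.00160, adjusted p = 0.0192) and rho = 0.60 (permutation p = 0.0189, adjusted p = 0.170), and r = 0.60 without the 2 farthest rats. Ranked by r with Cldn5 among 10255 genes, Slco1a4 came at place 3, Rgs5 at 24 and Vwf at 26. These values share each array's dissection, labelling and normalization, and the part of these in the correlations was not tested.

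No pair that held an endothelial receptor or Pecam1 passed the adjustment. Tek and Kdr had r = 0.62 with each other (permutation p = 0.0148, adjusted p = 0.0890; rho = 0.40, permutation p = 0.138, adjusted p = 0.451), and r = 0.45 without the 2 farthest rats. Each had r of 0.39 or 0.40 with Cldn5, and ranked at places 1174 and 1164 among 10255 genes by that measure. Flt1 had r = 0.54 with Cldn5 (permutation p = 0.0382, adjusted p = 0.196; rho = 0.48, permutation p = 0.0765, adjusted p = 0.344), place 406 by that measure, and r = 0.41 without the 2 farthest rats. Flt1 and Rgs5 had r = 0.62 (permutation p = 0.0140, adjusted p = 0.0890) and rho = 0.58 (permutation p = 0.0274, adjusted p = 0.197), and r = 0.67 without the 2 farthest rats. Pecam1 had r of -0.11 with Cldn5 and -0.21 with Slco1a4, and Pdgfrb -0.24 and -0.35.

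**Figure D3:**
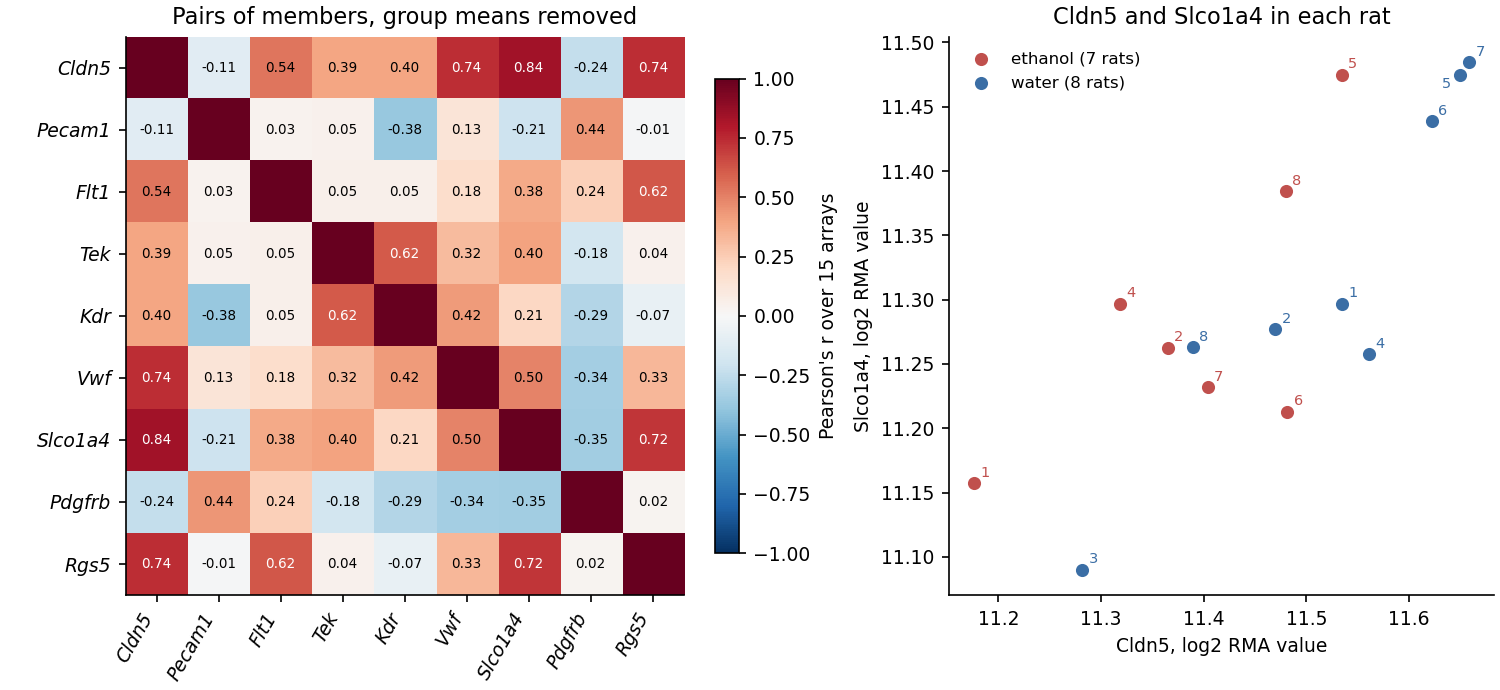
Left, Pearson's r between each pair of the 9 measured genes over 15 arrays with the group means removed (colour scale from -1 to 1, values printed in the cells). Right, log2 RMA values of Cldn5 (horizontal) and Slco1a4 (vertical) in 7 ethanol and 8 water rats, numbered by animal; r is 0.84, and ethanol rat 1 and water rat 3 are low for both.

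By the rule for likeness, the 5 genes closest to the mean of the 7 measured endothelial members, among 10247 genes that were not members, were Srgn (r = 0.92, rho = 0.91), Wfdc1 (r = 0.90, rho = 0.78), Cib1 (r = 0.87, rho = 0.62), Tmem204 (r = 0.84, rho = 0.84) and Tie1 (r = 0.84, rho = 0.85), each over 15 arrays with group means removed. Srgn encodes the proteoglycan serglycin and Tie1 an endothelial receptor related to Tek. Without the 2 rats farthest from the median of that mean, their r lay between 0.70 and 0.90. Wfdc1, a secreted protein with a protease inhibitor fold, differed from the members in that it fell in ethanol rats (log2 -0.30, SE 0.07, limma adjusted p = 0.0411). With single arrays left out in turn it stayed called in 2 of 15 fits, those without water rat 3 or 8, and its adjusted p ran up to 0.0973. None of the other 4 passed. Pdgfrb and Rgs5 did not follow each other (r = 0.02, rho = 0.04 over 15 arrays), so their mean is not a shared mural pattern. For that mean the closest were Apbb2 (r = 0.80), Stat5a (0.78), Sertad3 (0.76), Hdac7 (0.76) and Slc22a8 (0.76), and none of these 5 passed between the groups. Without the 2 rats farthest from the median of that mean, the r of these 5 genes lay between 0.58 and 0.73. These genes were picked as the highest of many, so the r values describe a ranking.

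Other genes tied to the vessel wall were read from 9 lists of 143 symbols, of which 130 had a 1-symbol probe set and 93 passed the filter. The lists were not limited to genes made by vascular cells only, so their counts do not report those cells alone. None of the 93 was called by limma, against 0.929% of all probe sets, and 14, or 15.1%, had an unadjusted p below 0.05, against 12.1% of all. Of the 93, 38 had higher and 55 lower means in ethanol rats, with a median difference of -0.02.

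The barrier transporters held the genes nearest to the threshold. Of 18 measured, 0 passed, 5 had an unadjusted p below 0.05, and 12 had lower means in ethanol rats, with a median of -0.07. Mfsd2a, the lipid transporter of brain endothelium that carries docosahexaenoic acid into the brain, read 8.78, 8.97 and 9.02 as lowest, median and highest in ethanol rats, against 8.95, 9.24 and 9.63 in water rats. The 7 ethanol rats were all below the water mean, but the ranges overlapped. The difference was -0.35 (SE 0.09, adjusted p = 0.0727), and it passed without water rat 8. Slc40a1, the iron exporter ferroportin, read 8.17, 8.34 and 8.42 in ethanol rats against 8.38, 8.52 and 8.72 in water rats, a difference of -0.21 (SE 0.05, adjusted p = 0.0750), again with 7 of 7 below the water mean, and it passed without water rat 3. Another kept probe set of Slc40a1 was at -0.18 (SE 0.08, adjusted p = 0.337). The other 3 of the 5 were chosen for naming after their values were seen. Slc2a1, the barrier glucose transporter, averaged 11.35 ± 0.11 (SD, n = 7) in the ethanol group against 11.59 ± 0.16 (SD, n = 8) in the water group, with 7 of 7 ethanol rats below the water mean (log2 -0.24, SE 0.07, adjusted p = 0.135). The efflux pump Abcg2 was at -0.20 (SE 0.08, adjusted p = 0.315), with 7 of 7 below the water mean. Slco2b1, an organic anion transporter, lay the other way, at 0.14 (SE 0.06, adjusted p = 0.314), with 7 of 7 above it. Other cells of the brain also make Slc2a1 and Slc40a1. Slco1a4, the transporter among the members, was at -0.03.

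Microglial and oligodendrocyte markers moved with the groups in the same rats. Of 9 measured microglial genes 3 rose (Trem2, Tyrobp and Gpr34) and 0 fell, beside 0.387% of all probe sets called higher. All 9 had higher means in ethanol rats. The mean of the list lay between 9.03 and 9.34 in ethanol rats and between 8.67 and 9.08 in water rats. Of 8 measured oligodendrocyte genes 0 rose and 3 fell (Ugt8, Fa2h and Cldn11), beside 0.542% of all probe sets called lower. All 8 had lower means in ethanol rats. The number that fell was 1 without ethanol rat 7, and 2 when ethanol rat 1, 4, 5, 6 or 8 was dropped, or water rat 1, 2, 3, 6 or 7. The list mean lay between 13.32 and 13.66 in ethanol rats and between 13.62 and 14.07 in water rats. Of 7 measured perivascular fibroblast and meningeal genes 0 passed and 7 had lower means in ethanol rats, with a median of -0.32 and list means from 8.56 to 9.40 in ethanol rats and from 8.84 to 9.52 in water rats. Their differences ran from -0.68 for Col1a2 to -0.03 (SE 0.06) for Pdgfra, the brightest of the 7. The part of these shifts in the values of Mfsd2a, Slc40a1, Slc2a1, Abcg2 and Slco2b1 was not tested. Nor was it tested for Fli1 and Icam1, given below.

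Of 18 measured genes of endothelial identity, 0 passed and 11 had lower means in ethanol rats, with a median of -0.02. Sox17, a transcription factor of arterial endothelium, was at -0.28 (SE 0.08, adjusted p = 0.136), with 6 of 7 ethanol rats below the water mean. Fli1, an ETS factor of endothelium and blood cells, was at 0.16 (SE 0.07, adjusted p = 0.362). Further kept probe sets of Fli1 were at 0.06 (SE 0.07, adjusted p = 0.788) and 0.14 (SE 0.06, adjusted p = 0.351). Among 9 tight and adherens junction genes, partners of Cldn5, 0 passed and the median was 0.02. Jam3, a junctional adhesion molecule, was at -0.18 (adjusted p = 0.324) and Ctnna1, which links cadherins to actin, at 0.07 (adjusted p = 0.529).

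On the list of VEGF, angiopoietin and PDGF ligands and co-receptors, 8 genes were measured and 0 passed, with a median of 0.0066. They were Vegfa, Vegfb, Pgf, Pdgfa, Nrp1 and Nrp2, with the transcription factors Hif1a and Epas1. Of the 16 symbols on the list 14 had a 1-symbol probe set, but no angiopoietin and no Pdgfb was among the 8 that passed the filter. The ligands of Tek and the PDGF-B that Pdgfrb binds were therefore not measured above the filter level. The placental growth factor Pgf, a ligand of Flt1, was at -0.09 (adjusted p = 0.637), and the VEGF co-receptor Nrp1 at -0.07 (adjusted p = 0.780). Another kept probe set of Nrp1 was at -0.13 (SE 0.06, adjusted p = 0.390). Of 9 genes of the Wnt signal that maintains the barrier, 0 passed and the median was 0.03. Axin2, a common target of that signal, was at 0.23 (SE 0.09, adjusted p = 0.295), with 7 of 7 ethanol rats above the mean of water rats, and the co-receptor Lrp6 was at 0.16 (SE 0.06, adjusted p = 0.282). The receptor Fzd4, the third with an unadjusted p below 0.05 and named after its values were seen, lay the other way, at -0.13 (SE 0.05, adjusted p = 0.306), with 6 of 7 ethanol rats under the water mean. On the list for endothelial activation, 4 of 12 genes with a probe set were bright enough to measure and 0 passed. The 4 were Icam1, Vcam1, Ackr1 and the receptor gene Tnfrsf1a. The adhesion molecule Icam1 was at 0.17 (SE 0.07, adjusted p = 0.330) and the chemokine-binding protein Ackr1 at -0.06 (adjusted p = 0.778).

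Mural genes other than the members gave no call either. Of 16 pericyte genes with a probe set 8 were measured, 0 passed and the median was -0.01. Vtn, which encodes the matrix protein vitronectin, was at -0.22 (SE 0.09, adjusted p = 0.312) and Higd1b at -0.09 (adjusted p = 0.518). All 7 measured genes of the smooth muscle list had lower means in ethanol rats and 0 of them passed, with a median of -0.11. That median was the value of Sncg (SE 0.40), which ranged from 10.43 to 13.05 in water rats, so it is imprecise. Sncg was also the brightest of the 7, with a mean of 11.83 in water rats against 7.95 for Acta2. Which cells made its RNA was not tested, so the median cannot be taken as a reading of smooth muscle. The contractile filament genes Tpm2 and Myl9 were at -0.35 (SE 0.18, adjusted p = 0.472) and -0.20 (SE 0.11, adjusted p = 0.502). Of 12 vascular basement membrane genes 10 had lower means in ethanol rats and 0 passed, with a median of -0.08. The collagen Col4a1 was at -0.23 (SE 0.08, adjusted p = 0.223), with 7 of 7 ethanol rats under the water mean, and the laminin chain Lamc1 at -0.09 (adjusted p = 0.485). Another kept probe set of Col4a1 was at -0.13 (SE 0.04, adjusted p = 0.239).

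**Figure D4:**
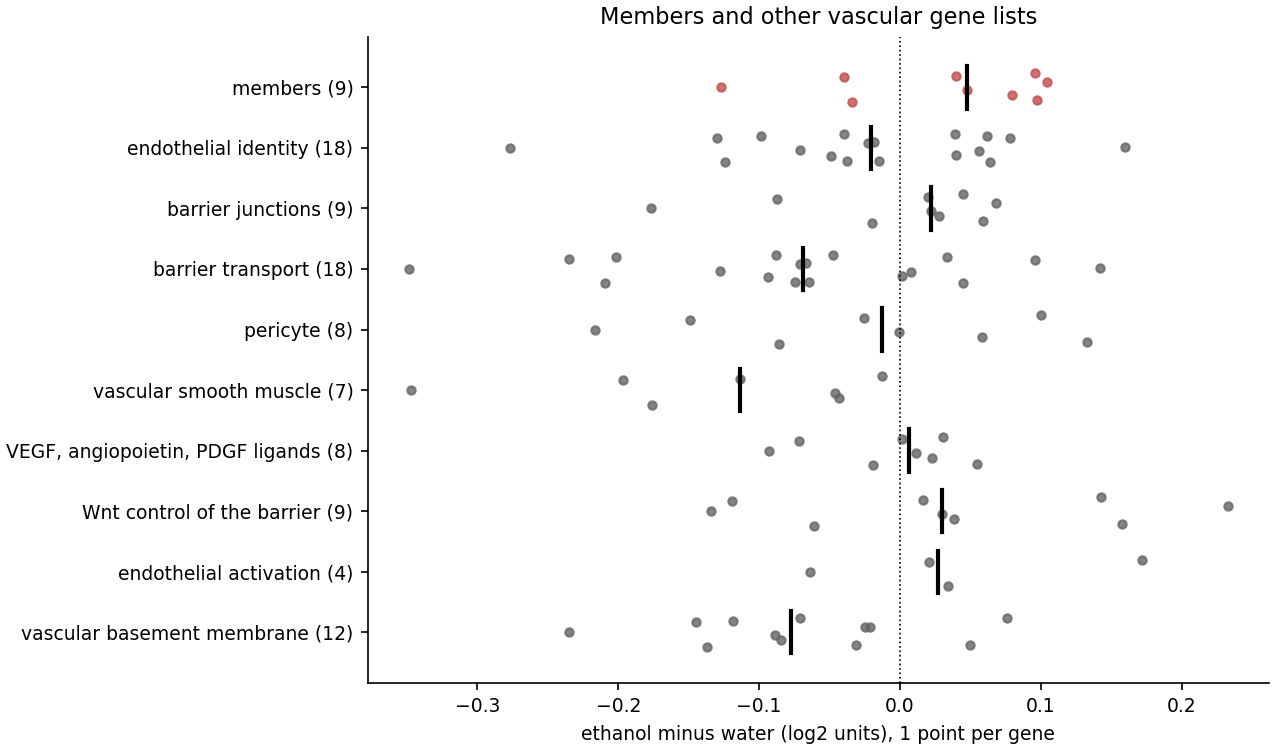
Difference between the group means, ethanol minus water, in log2 units (horizontal axis) with 1 point per gene, for the 9 measured members (red, top row) and 9 lists of other vascular genes (grey); the number of measured genes is in brackets and the black bar is the list median. The medians run from -0.11 for smooth muscle to 0.05 for the members, and no point was called.

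The samples carried a marker of dopamine neurons, Th, the rate-limiting enzyme of dopamine synthesis. Th averaged 14.94 ± 0.22 (SD, n = 7) in the ethanol group against 14.80 ± 0.26 (SD, n = 8) in the water group. The mean of 6 neuron genes lay between 11.94 and 12.68 in ethanol rats and between 11.58 and 12.86 in water rats. Among them Nefl ranged from 12.08 to 15.33 in water rats, and Snap25 from 14.56 to 14.98. The part of this spread in the member values was not tested. Haemoglobin Hbb, which reports blood left in the vessels, averaged 12.73 ± 0.57 (SD, n = 7) in the ethanol group against 12.91 ± 0.21 (SD, n = 8) in the water group (log2 -0.17, SE 0.19, adjusted p = 0.757). For the control transcripts, the 3′ signal less the 5′ signal, a measure of RNA length, was 1.08 ± 0.05 (SD, n = 7) in the ethanol group against 1.11 ± 0.05 (SD, n = 8) in the water group (exact permutation p = 0.250). The median correlation of an array with the other arrays was 0.9919 ± 0.00054 (SD, n = 7) in the ethanol group against 0.9906 ± 0.0014 (SD, n = 8) in the water group (exact permutation p = 0.0325), and its part in the results was not tested.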

How the data were processed

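The authors deposited log2 values made with RMA, per the submitters' processing notes, from biotin-labelled RNA amplified in 2 cycles from 25 ng, per the labels' protocols, which name no software version. RMA gives all arrays 1 intensity distribution and compresses dim differences, and amplification shortens copies toward the 3′ end. Symbols came from GEO's platform annotation: 20837 of 31042 probe sets had 1 symbol, 425 several and 9780 none listed. Probe sets with a mean at or above the 40th percentile (6.94) were kept, which left 18625, and fitted with limma 3.58.1 in R 4.3.3 (two-sided, Benjamini-Hochberg over all kept, threshold 0.05). The fit was tested on simulated data. The number of arrays limits the precision. The exact permutation test used all 6435 divisions of the arrays, and correlations 100000 permutations. Members and gene lists were chosen with earlier results of these data known. Named were all member probe sets, the 2 genes of smallest p per vascular list and any called, and the 5 genes most like the members. Genes of a list are represented by their brightest kept probe set. No dates of dissection or hybridization are given, so no batch was tested. Other filters, scalings, fits, a block by animal number and leaving out each array were tried. Promoter windows are from RefSeq (GRCr8); 5 of the 10 members were matched. The numbers in the titles do not pair the animals by the labels.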

Additional observations from a re-analysis of the deposited data

Results flagged for a closer look

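In 114 groups of values examined, those of the members and of the other named genes, 5 held 1 rat far from the rest of its group, and chance gives about 1 in 20. The brightest probe set of Pdgfrb was high in ethanol rat 6, at 7.80, with the next ethanol rat at 7.53. Another probe set of Pdgfrb was high in water rat 5, at 7.56, with the next water rat at 7.29. Lrp6 was low in water rat 2, at 7.17, against 7.36 in the next. Ackr1 was high in ethanol rat 6, at 9.22, against 9.07 in the next. Trem2 was high in ethanol rat 8, at 8.53, against 8.25 in the next.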

How the results depend on the processing

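Under the 8 alternative fits and the 15 fits with 1 array left out, 0 member probe sets were called, with a smallest adjusted p of 0.223. The member median lay between 0.03 and 0.07 with 1 array left out and between 0.03 and 0.09 otherwise. Of 283 alternative values of the 12 member probe sets, 3 changed sign and 0 changed a call: Flt1 was at -0.0019 with array weights, and the brightest probe set of Pdgfrb at 0.00063 with the replicate block and from -0.087 (without ethanol rat 6) to 0.00063 (without water rat 3) with 1 array left out. The count over all probe sets, 173, was 429 with robust regression and 59 with the replicate block, and from 100 to 180 with 1 array left out (100 without ethanol rat 7, 102 without ethanol rat 8). Of the 93 vascular list genes, 0 were called, against 2 with median centring, 4 with robust regression, 2 with array weights and from 0 to 1 with 1 array left out, which were Mfsd2a, Slc40a1, Sox17 and Vtn. Without a filter 130 were tested and 1 was called, Kcnj8, which is not among the 93. The cause was not tested. The labels do not say that the animal numbers pair the rats. Deviations of same-numbered rats correlated above 0.1 in 4 of 7 pairs, with r from -0.41 to 0.29. Rats of different numbers were not compared, so these values cannot show whether the numbers pair the rats. The replicate block is therefore only a setting. Pdgfrb, Pecam1 and Flt1 lie within 1 log2 unit of the filter level, where RMA compresses differences.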

Other observations

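Kcnj8, the pore subunit of an ATP-sensitive potassium channel that is enriched in pericytes, lay below the filter level, with a mean of 6.47 over the 15 arrays. It read 6.51, 6.65 and 6.93 as lowest, median and highest in ethanol rats and 6.12, 6.27 and 6.53 in water rats, and the ranges overlapped. When the filter was dropped, it was the 1 vascular list gene called (log2 0.36, SE 0.07, limma adjusted p = 0.0383). The members of mural cells, Rgs5 and the brightest probe set of Pdgfrb, were at 0.08 and -0.04 in the same rats. Kcnj8 was chosen after its values were seen.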
